A study of Mus musculus with 10 samples.

Results

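Nascent RNA of 10 genes was followed while Xist was induced in mouse embryonic stem cells. Of these, 9 genes encode Polycomb proteins (Ezh2, Eed, Suz12, Jarid2, Aebp2, Pcgf3, Pcgf5, Ring1 and Rnf2) and the last, Smchd1, encodes a chromosomal protein of the inactive X. They were taken by symbol, without regard to their values, and all 10 were found among the 24386 genes counted. The cells were TX1072, a wild-type female line carrying one castaneus (Cast) and one C57BL/6 (B6) set of chromosomes, in which doxycycline (DOX) switches on the endogenous Xist gene of the B6 X chromosome. DOX at 1 µg/ml was given 24 h after plating, in serum medium with LIF and 2i, and cells were taken after 0, 4, 8, 12 and 24 h, with 2 samples per time and 10 in all. RNA made in the last 5 min was labelled with 0.5 mM 4-thiouridine and sequenced (transient transcriptome sequencing, TT-seq), so the counts report recent transcription rather than the store of mature RNA or protein. All samples came from 1 cell line, every sample after 0 h had both DOX and a longer time in culture, and samples without DOX at the later times were not analysed here. Effects of DOX, of Xist and of time in culture therefore cannot be told apart in the comparisons with 0 h.

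Polycomb proteins act in 2 families of complexes that modify histones and keep genes repressed. Polycomb repressive complex 2 (PRC2) methylates histone H3 on lysine 27 through EZH2, which is active only when bound to EED and SUZ12, and JARID2 and AEBP2 are accessory subunits that help to bring the complex to chromatin. Polycomb repressive complex 1 (PRC1) attaches ubiquitin to histone H2A on lysine 119 through the E3 ligases RING1 and RNF2 (also called RING1B), and a PCGF subunit defines each form of the complex. PCGF3 and PCGF5 belong to the variant complexes that Xist RNA recruits to the X chromosome during inactivation, whereas SMCHD1 joins the inactive X late and helps to keep its genes silent. The question put to these data was whether the genes for this machinery are themselves transcribed at another rate, or from another allele, while the chromosome is being silenced.

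Xist was induced in every treated sample. It stood at 1.41 and 1.53 CPM (counts per 1000000 counts of the library) in the 0 h samples and at 329 to 664 CPM in the 8 later ones. Samples held 18809046 to 22274929 counts in all. Reads that could be assigned to an allele made up 51.7% to 52.8% of it in 9 samples and 49.2% in 0 h replicate 1. The embryonic stem cell markers Nanog and Pou5f1 had at least 1972 counts in each sample, and of the 4 fibroblast markers Col3a1 and Postn had at most 1, Col1a1 8 to 23 and Col1a2 28 to 71. At 24 h, 0 of 6 tested stem cell markers, 0 of 5 of primitive endoderm, 0 of 3 of trophectoderm and 0 of 2 of fibroblasts passed in total count (edgeR, with 0 at an unadjusted p under 0.05). Over all genes 1.85% and 10.3% passed, so 0 in lists this short does not show that the cell state was unchanged. Of 4 markers of primed or formative epiblast, Otx2, with 66 to 132 counts in a sample, fell by 0.84 ± 0.17 on the log2 scale (adjusted p 0.0159, edgeR). Its part in the results was not tested, and the changes of the other markers in this list are not given here. Sox2 was listed at 0 in all samples. Its span lies within that of Sox2ot on the same strand, and featureCounts by default leaves out a read that overlaps both. Spans of the 10 genes overlapped none on the same strand, so their counts do not meet this limit.

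All 10 genes are autosomal and protein coding, and their levels of nascent RNA reads covered a wide range. Levels were compared per length, as CPM per kb of the counted span, since the span includes introns and runs from 3.889 kb for Ring1 to 190.87 kb for Jarid2. The genes of the 3 core subunits of PRC2 were not read at equal levels. Suz12, at chr11:79993106-80034123 on the plus strand in mm10, was the highest of the 10 genes at 16.03 ± 0.80 CPM per kb (SD over the 10 samples), above 97.9% of the genes tested. Eed (chr7:89954654-89980976, minus strand) followed at 10.8 ± 0.61 and the catalytic subunit Ezh2 (chr6:47530274-47595030, minus strand) stood at 4.56 ± 0.29. Within each sample the level of Suz12 was 3.25 to 3.77 times that of Ezh2, and the level of Eed was 2.17 to 2.59 times that of Ezh2. Ezh2 in turn exceeded its paralogue Ezh1 by 4.88 to 6.25 times. Among the accessory subunits, Jarid2 reached 9.48 ± 0.51 and Aebp2 2.90 ± 0.10.

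The PRC1 genes differed more among themselves. Rnf2 (chr1:151469406-151500823, minus strand) stood at 5.28 ± 0.14 CPM per kb, whereas Ring1 (chr17:34020792-34024680, minus strand) had 12 to 23 counts in a sample and a level of 0.21 ± 0.05, above 25.4% of the genes tested. The level of Rnf2 was 17.6 to 33.9 times that of Ring1, with a median of 26.4 over the 10 samples. Protein-coding genes within 10 kb of Ring1 were read at higher levels, with means of 0.65 for H2-Ke6, 0.86 for Rxrb and 3.94 for Slc39a7. Pcgf3 stood at 2.88 ± 0.13 and Pcgf5 at 0.74 ± 0.05, a ratio of 3.50 to 4.48 within samples. The counted span of Pcgf5 starts at the middle one of the 3 start sites listed for it by RefSeq. Another, at chr19:36409748, lies inside the span. Which start was used was not tested, and the level per kb of Pcgf5 and its ratio to Pcgf3 depend on it. Smchd1, at chr17:71344493-71475343 on the minus strand, had 2.54 ± 0.11. Of the 9 pairs of neighbours in this order, 2 overlapped in their ranges over the samples, Eed with Jarid2 and Aebp2 with Pcgf3.

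**Figure D1:**
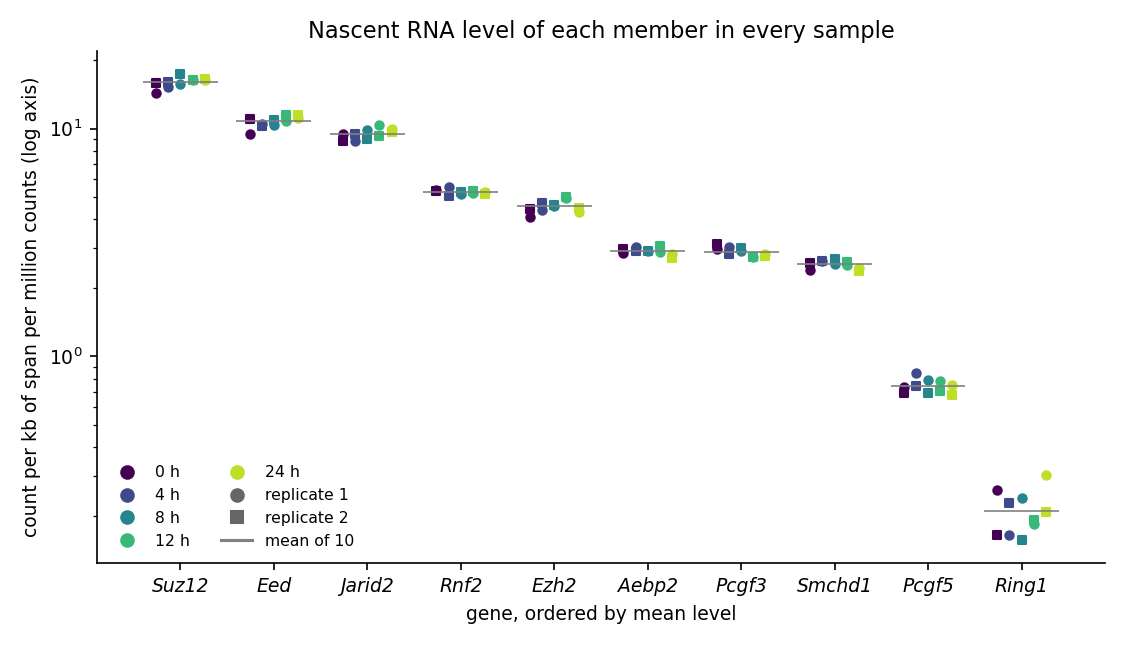
Level of each gene in each of the 10 samples, as CPM per kb of the counted span on a log axis. Colours give the hours of DOX, symbols the replicate and grey bars the mean. Suz12 is the highest and Ring1 the lowest in each sample.

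Ring1 and Rnf2 encode alternative ligases and were read at such different levels that the DNA ahead of both starts is shown. These are the 250 bases upstream of the RefSeq start on the gene's own strand (GRCm38.p6), 5′ to 3′, in lower case with each CG dinucleotide in capitals.
Ring1, chr17:34024681-34024930, minus strand: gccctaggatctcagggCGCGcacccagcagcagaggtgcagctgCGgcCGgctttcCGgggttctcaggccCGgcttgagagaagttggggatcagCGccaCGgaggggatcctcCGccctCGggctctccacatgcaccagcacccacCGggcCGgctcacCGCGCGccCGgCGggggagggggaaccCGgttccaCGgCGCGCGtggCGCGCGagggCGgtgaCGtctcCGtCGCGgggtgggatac
Rnf2, chr1:151500992-151501241, minus strand: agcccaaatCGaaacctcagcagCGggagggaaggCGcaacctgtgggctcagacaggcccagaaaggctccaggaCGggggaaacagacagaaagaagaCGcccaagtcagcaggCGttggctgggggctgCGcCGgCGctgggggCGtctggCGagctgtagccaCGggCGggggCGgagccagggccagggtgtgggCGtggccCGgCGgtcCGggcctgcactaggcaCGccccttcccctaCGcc
The Ring1 stretch holds 30 CG dinucleotides and that of Rnf2 holds 20. At least as many were found ahead of 5.94% and 17.9% of the 32851 mouse promoters in the RefSeq table. CG was sought on 1 strand, since it reads the same on both. All 10 genes had an entry there, with 15 promoters in all, and these held a median of 22 CG against 6 for the whole table. Genes with several starts were counted once per start. The stretches at the counted starts of Aebp2 and Pcgf5 held only 1 and 4 CG. A dense run of CG lay ahead of both the high and the low ligase gene.

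Ezh2 was the only one of the 10 genes whose total count passed any of the tests run, and it stood highest at 12 h. Its CPM values were 264 and 288 at 0 h, 284 and 306 at 4 h, 297 and 300 at 8 h, 322 and 326 at 12 h, then 280 and 289 at 24 h. Both 12 h samples lay above all other samples, and those of 24 h fell within the range of 0 h and 4 h. The log2 change at 12 h was 0.28 ± 0.08 (SE, n = 2 per time; 95% interval 0.11 to 0.45), or 21.5% more, with an unadjusted p of 0.00273 and an adjusted p of 0.142 in edgeR. The test of any change over time gave an adjusted p of 0.494 in edgeR. Samples with the same replicate number deviated together across genes, and with the replicate number as a block the 12 h change was 0.28 with an adjusted p of 0.00709, and the test over all times gave 0.0371 (edgeR). Adjusted over autosomal genes alone, the blocked values were 0.0180 at 12 h, which still passed, and 0.0578 over all times, which did not. Leaving out 0 h replicate 2 gave 0.36 with an adjusted p of 0.0422, and leaving out 0 h replicate 1 gave 0.20 with 0.477 (edgeR), so the size of the change depended on which 0 h sample was kept. At 24 h the change was 0.06 ± 0.08.

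**Figure D2:**
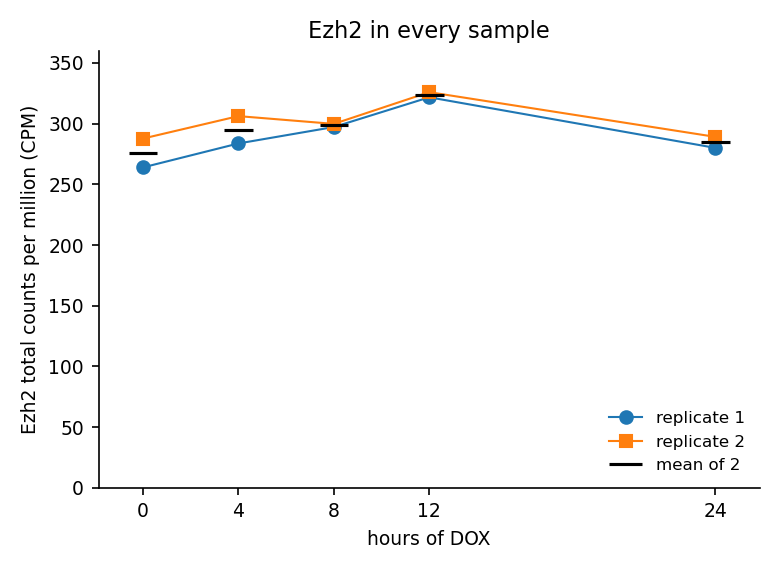
CPM of Ezh2 in total counts against hours of DOX, with 1 line per replicate number and black bars for the mean of 2. The 12 h samples, at 322 and 326 CPM, are the highest and the 24 h samples lie back at 280 and 289 CPM.

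The other genes of PRC2 moved by less. Eed was read at 250 and 290 CPM at 0 h, 276 and 271 at 4 h, 273 and 287 at 8 h, 283 and 303 at 12 h, then 294 and 303 at 24 h. The 24 h samples were above both at 0 h, but the 0 h pair was itself the widest of the 5, and the log2 change of 0.16 ± 0.08 at 24 h had an adjusted p of 0.570 in edgeR. Suz12 had 591 and 651 CPM at 0 h and 669 and 680 at 24 h, with a change of 0.13 ± 0.08. Jarid2 ran from 1685 to 1990 CPM and Aebp2 from 151 to 170 CPM over all samples, and for both the groups at 0 h and 24 h gave changes of 0.12 ± 0.09 and -0.05 ± 0.07. At 12 h the fitted changes of the 3 core subunits and Jarid2 were all above 0, at 0.28, 0.17, 0.16 and 0.16. The last 3 of these did not pass the test (adjusted p 0.452 for Eed, 0.474 for Suz12 and 0.503 for Jarid2 in edgeR).

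The ligase gene Rnf2 varied least in CPM over the 10 samples relative to its mean. It was read at 169 and 168 CPM at 0 h, 175 and 159 at 4 h, 163 and 165 at 8 h, 165 and 167 at 12 h, then 166 and 162 at 24 h. The change at 24 h was -0.03 ± 0.07, with a 95% interval of -0.17 to 0.12, or -11.0% to 8.50%. Pcgf3 had 124 and 130 CPM at 0 h and 118 and 116 at 24 h, a change of -0.11 ± 0.07 that did not pass the test (adjusted p 0.697, edgeR). Pcgf5 had 56.7 and 53.5 CPM at 0 h, at most 65.1 in any sample, and 57.5 and 52.4 at 24 h. For Ring1, with so few counts, the interval at 24 h ran from -0.51 to 1.05 on the log2 scale, so even large changes were not detectable at this depth. Smchd1 was read at 314 and 336 CPM at 0 h, 344 and 345 at 4 h, 333 and 351 at 8 h, 331 and 339 at 12 h, then 318 and 311 at 24 h. The groups at 0 h and 24 h overlapped, and the change was -0.03 ± 0.07 (95% interval -0.19 to 0.12).

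In counts over the list, 0 of the 10 genes passed an adjusted p of 0.05 in edgeR at any single time or in the test of any change. In the same fit 0.0138%, 0.193%, 0.950% and 1.85% of all 14525 tested genes passed at these times, and 1.25% in the test over all times. Those shares include X-linked genes. Adjusted over autosomal genes alone, 1, 0, 1 and 16 of 14019 genes passed at these times, and 12 over all times. DESeq2 and limma-voom called 0 of the 10 as well. At an unadjusted p under 0.05, Ezh2 passed at 12 h and over all times, where 11.5% and 8.45% of all genes did. None of the 10 passed at 4, 8 or 24 h, where 2.09%, 4.06% and 10.3% of all genes did. With the replicate block 1 of 10 passed at 12 h and 1 over all times, against 4.94% and 6.12% of all genes. Adjusted over autosomal genes alone, the block called 270 of 14019 genes at 12 h, with Ezh2 among them. Over all times it called 445, without Ezh2. The median log2 change of the 10 was 0.05, 0.08, 0.10 and 0.03 at 4, 8, 12 and 24 h, beside medians over all genes between -0.004 and 0.008. Without Ring1, the 95% intervals of the other 9 genes at 24 h lay between -16.4% and 26.0%, so changes inside these bounds may have gone unseen. With 2 samples per time a two-sided exact test on 1 gene could not fall below p = 0.333, so the tests borrow the spread of all genes, and the p-values measure the spread between these samples only. Counts were scaled to the library, so an equal change of all transcripts would not show, and in a bulk sample fewer cells making a transcript and less transcript per cell cannot be told apart.

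**Figure D3:**
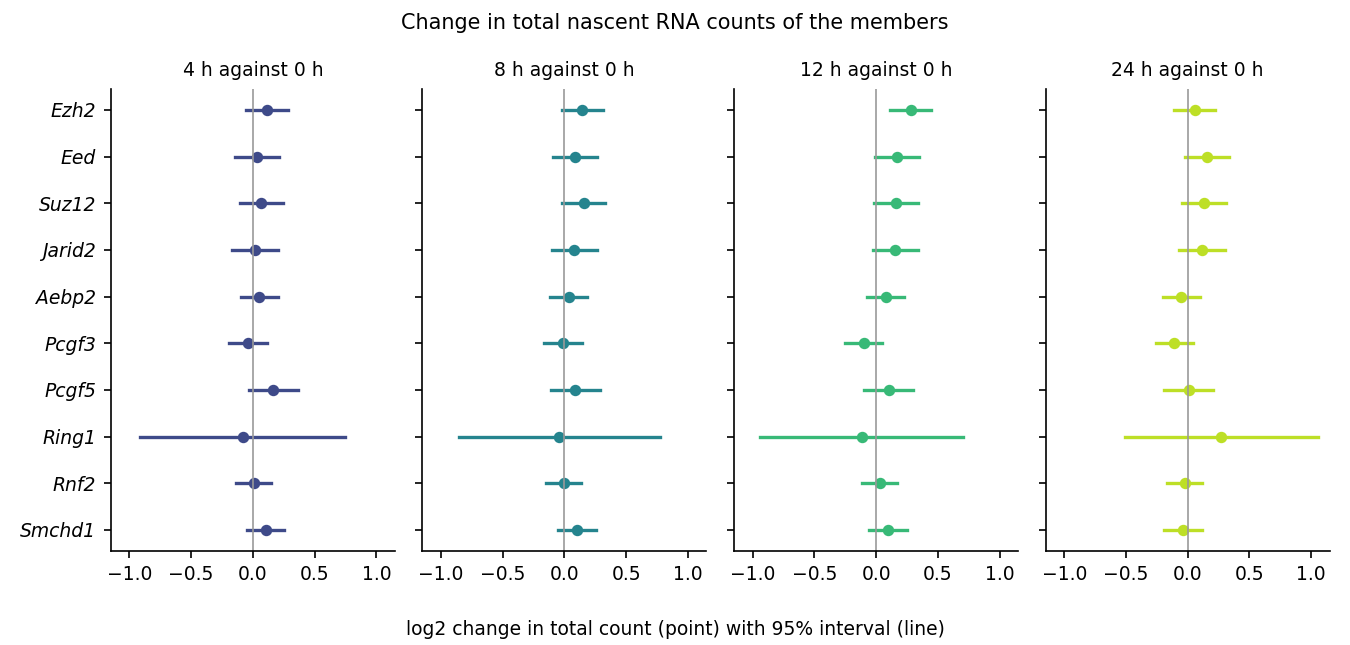
Log2 change in total count against 0 h for each gene (points) with its 95% interval (lines), at 4, 8, 12 and 24 h. The interval holds 0 for each gene at each time except Ezh2 at 12 h, and it is widest for Ring1.

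The B6 share of the genes, the part of their allelic reads that carried B6 variants (the d-score of the study), did not move detectably either. The allele test could be run on 9 genes that had at least 10 allelic reads in each sample. Ring1 had 2 to 14 and was not tested. Between 1233 and 22550 allelic reads per sample lay behind the d-scores of Ezh2, Eed, Suz12, Jarid2, Aebp2, Pcgf3, Rnf2 and Smchd1, and 719 to 909 behind those of Pcgf5. In edgeR, 0 of the 9 passed an adjusted p of 0.05 at 4, 8, 12 or 24 h or in the test over all times, where 0.361%, 1.66%, 2.15%, 2.64% and 2.55% of all 11906 tested genes did. None had an unadjusted p under 0.05, which 5.00%, 5.90%, 7.38%, 8.21% and 7.33% of all genes reached, and DESeq2 called 0 of the 9. The shares over all genes include X-linked ones. In edgeR adjusted over autosomal genes alone, 0, 0, 2 and 6 of 11543 genes passed at 4, 8, 12 and 24 h. Over all times 8 did.

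Smchd1 gave 0.532 and 0.531 at 0 h, 0.531 and 0.529 at 4 h, 0.546 and 0.534 at 8 h, 0.548 and 0.542 at 12 h, then 0.543 and 0.542 at 24 h. All 6 samples from 8 h on lay above the 4 earlier ones, but by so little that the log2 change in the B6 to Cast ratio at 24 h was 0.07 ± 0.05, with an adjusted p of 0.893 in edgeR. Jarid2, the most deeply read, gave 0.528 and 0.523 at 0 h and 0.527 and 0.512 at 24 h, a change of -0.04 ± 0.04 with a 95% interval of -0.11 to 0.03. Over the 9 genes the changes at 24 h ran from -0.06 to 0.08 with a median of 0.06, and their intervals from -0.21 to 0.28.

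The shares did not all sit at the middle, although no change over time was detected in them. For Eed and Rnf2 most allelic reads were assigned to B6. The d-score of Eed was 0.647 and 0.648 at 0 h and 0.672 and 0.646 at 24 h, and over all 10 samples it ran from 0.638 to 0.672. The Rnf2 values were 0.647 and 0.646 at 0 h, then 0.639 and 0.635 at 24 h, and 0.629 to 0.667 over all samples. Counting error on a single sample was at most 0.024 to either side (95% Wilson interval, which covers counting error only). The median mean d-score of 11543 autosomal genes was 0.522, with quartiles of 0.479 and 0.567, and 19.8% and 20.3% of these genes had a ratio at least as far from the median as Eed and Rnf2. Relative to most genes, the B6 to Cast ratio was 1.69 times as high for Eed (95% interval 1.64 to 1.73) and 1.67 times for Rnf2 (1.62 to 1.73). The 6 genes tested within 0.5 Mb of Eed had d-scores of 0.516 to 0.646 with a median of 0.563. The 7 around Rnf2 ran from 0.298 to 0.896 with a median of 0.516.

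Smaller leanings were found in 4 further genes. Relative to most genes the log2 B6 to Cast ratio was -0.31 ± 0.02 (SE) for Aebp2, -0.19 ± 0.04 for Pcgf5, -0.15 ± 0.02 for Ezh2 and 0.10 ± 0.02 for Smchd1. In all 6 of 9 genes passed an adjusted p of 0.05 in edgeR, 3 toward B6 and 3 toward Cast. Of all tested genes 71.1% did, so a leaning of this kind was common in these reads. Whether reads of both alleles were aligned and assigned equally well was not tested, so a leaning in reads need not be one in transcription. Suz12, Jarid2 and Pcgf3 did not pass, at 0.01 ± 0.02, 0.02 ± 0.01 and -0.03 ± 0.03. The smaller values depend on where the middle is set. Without scaling the 2 alleles to each other, all autosomal ratios shift toward B6 by a median of 0.12 on the log2 scale, Ezh2 and Pcgf5 no longer pass (-0.02 and -0.07), and Suz12, Jarid2 and Pcgf3 pass toward B6 at 0.13, 0.14 and 0.09, the last with its sign turned. Eed, Rnf2, Smchd1 and Aebp2 kept side and call under both.

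**Figure D4:**
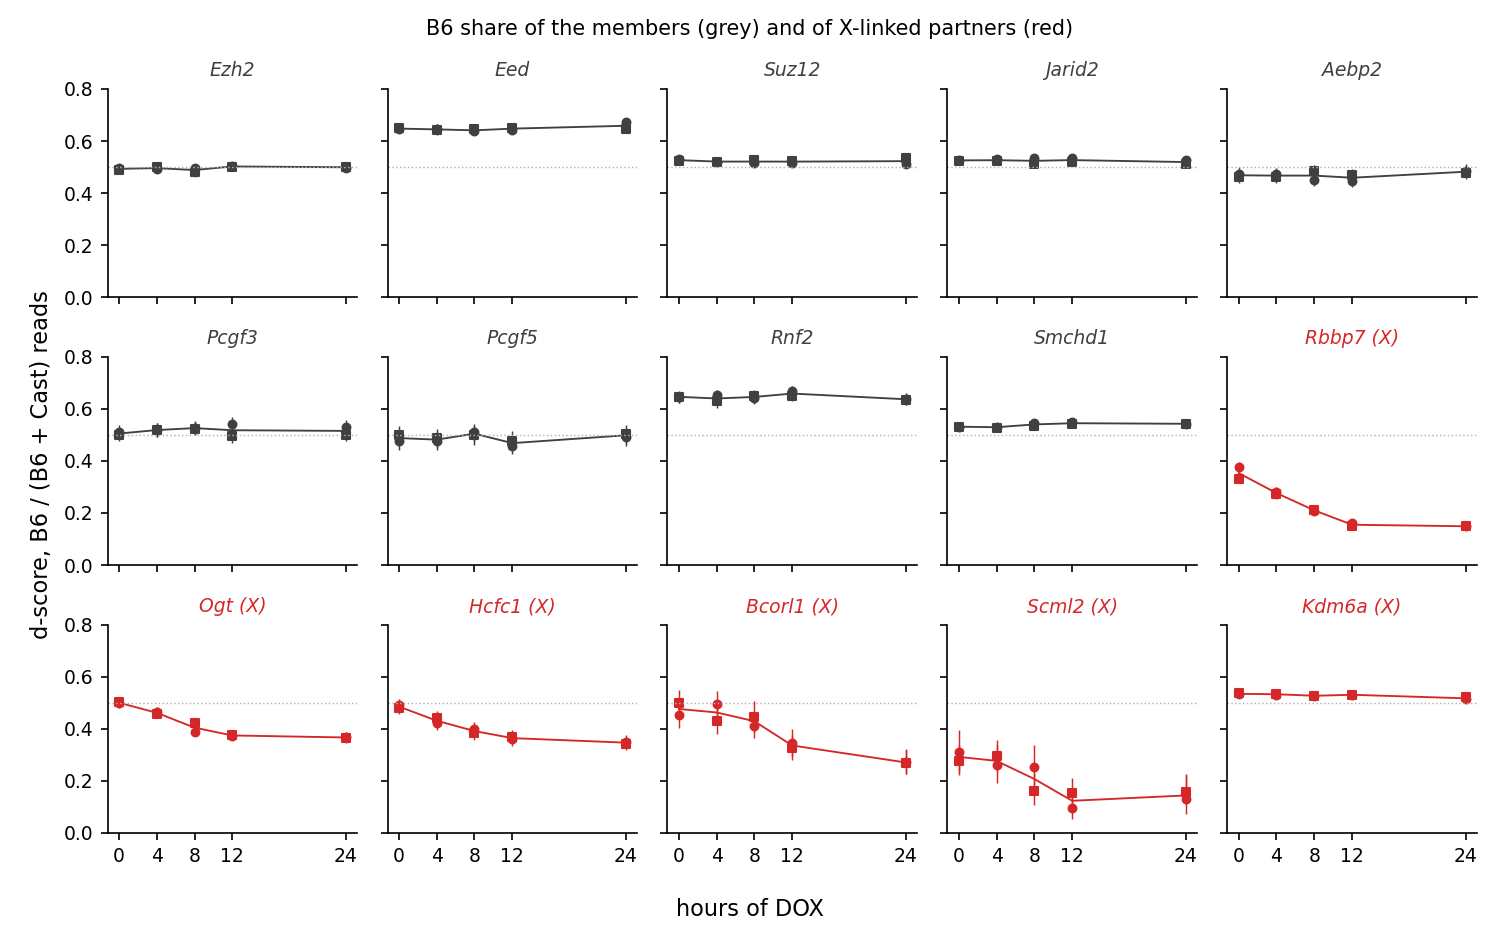
The d-score, B6 reads over B6 and Cast reads, against hours of DOX for 9 of the genes (grey) and 6 X-linked partner genes (red). Points are samples with 95% Wilson intervals, lines join the means of 2, and the dotted line marks 0.5. No change over time was detected in the grey genes, with Eed and Rnf2 near 0.65, while Rbbp7 falls from 0.377 and 0.330 to 0.148 and 0.150.

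The machinery has other subunits, and 67 genes for them and for other proteins of the same pathway were put beside the 10. They comprise 9 of PRC2, 12 of canonical PRC1 and 24 of variant PRC1. A further 11 encode enzymes that oppose the marks or proteins linked to these enzymes, and 11 encode Xist-binding and silencing factors. Of the 67, 59 are autosomal and 8 X-linked. Of the autosomal ones, 0 of 56 tested passed in total counts at any single time and 0 of 51 in B6 share (edgeR, and DESeq2 also gave 0), where at 24 h 1.85% and 2.64% of all genes did. Adjusted over autosomal genes alone, 16 of 14019 and 6 of 11543 genes passed at 24 h. At an unadjusted p under 0.05, 0, 1, 6 and 8 of the 56 passed in totals at 4, 8, 12 and 24 h, beside the 2.09%, 4.06%, 11.5% and 10.3% of all genes given above. In B6 share 1, 1, 4 and 2 of the 51 did, beside 5.00%, 5.90%, 7.38% and 8.21%. Under the replicate block 2 of 56 passed at 12 h (Lcor and Rybp) and 2 at 24 h (Asxl3 and Yaf2), where 4.94% and 5.32% of all genes did. Adjusted over autosomal genes alone, the block called 270 and 321 of 14019 genes at these times. Among the Xist-binding and silencing factors, 0 of 11 passed at 24 h in total counts (edgeR), and 1 did at an unadjusted p under 0.05, where 1.85% and 10.3% of all genes passed. Of the paralogues of the listed subunits, Ezh1, Pcgf2 and Bmi1 did not pass in either measure at 24 h (edgeR), and Pcgf1 did not in total counts and had too few allelic reads for the test of B6 share. The fitted log2 change in total count was 0.02 ± 0.09 for Ezh1, 0.34 ± 0.24 for Pcgf1, 0.01 ± 0.09 for Pcgf2 and -0.13 ± 0.18 for Bmi1, with adjusted p from 0.724 to 0.990 in edgeR. Ezhip, Cbx6, Pcgf6 and Bcor were listed at 0 in all samples, and each of these spans overlaps at least 1 other gene on the same strand, so a 0 here is no measure of their transcription.

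The fitted B6 share was lower at 24 h in all 6 X-linked partners that could be tested, and 5 passed, all but Kdm6a. At an unadjusted p under 0.05 all 6 were lower at 24 h (edgeR), where 8.21% of all genes passed. Of the 6, 1 passed in B6 share at 4 h, 3 did at 8 h and 5 did at 12 h and again at 24 h (edgeR), all lower, beside 41, 191, 237 and 272 lower genes among 362 on the X without Xist. Rbbp7 (chrX:162760372-162779090, plus strand) encodes a histone-binding subunit of PRC2, passed at 4 h already and had the largest fitted fall of the 6 at 24 h. Its d-scores were 0.377 and 0.330 at 0 h, 0.281 and 0.273 at 4 h, 0.209 and 0.211 at 8 h, 0.160 and 0.150 at 12 h, then 0.148 and 0.150 at 24 h. No later sample reached those of 0 h. After 4 h the log2 B6 to Cast ratio fell by 0.50 ± 0.07, after 8 h by 1.02 ± 0.08, after 12 h by 1.56 ± 0.08 and after 24 h by 1.63 ± 0.08. Scaled to the autosomal reads of the same allele (RPM), the B6 mean went from 177 RPM at 0 h to 56.4 RPM at 24 h while the Cast mean stood at 354 and 351 RPM.

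The total count of Rbbp7 followed by less. It was read at 346 and 374 CPM at 0 h and at 286 and 276 at 24 h, and fell by 21.4% (log2 change -0.35 ± 0.08, adjusted p = 0.0284, edgeR). That was the 1 call in totals among the 6 genes, and it was lost without 0 h replicate 2 (-0.27, adjusted p 0.121), without 24 h replicate 1 (-0.37, 0.130) or without 24 h replicate 2 (-0.34, 0.205). With the replicate block, 1 of the 6 passed in totals at 8 h, 3 at 12 h and 4 at 24 h, where 0.744%, 4.94% and 5.32% of all genes did. The autosomal paralogue Rbbp4, whose protein takes the same place in PRC2, had 190 and 208 CPM at 0 h and 200 and 210 at 24 h, a change of 0.05 ± 0.09. The level of Rbbp4 per length was 0.366 ± 0.003 (SD, n = 2) of that of Rbbp7 at 0 h and 0.483 ± 0.029 at 24 h.

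The other X-linked partners gave fitted changes of the same direction. Ogt encodes the enzyme that attaches N-acetylglucosamine to nuclear proteins, and its d-score went from 0.500 and 0.501 at 0 h to 0.370 and 0.363 at 24 h (log2 ratio -0.79 ± 0.06). Hcfc1, for a partner of OGT, went from 0.490 and 0.481 to 0.351 and 0.343 (-0.83 ± 0.09). Bcorl1, a subunit gene of a variant PRC1, gave mean d-scores of 0.476 ± 0.031 at 0 h and 0.271 ± 0.00050 at 24 h (SD, n = 2), and Scml2, of canonical PRC1, 0.292 ± 0.024 and 0.144 ± 0.018. All 4 passed at 24 h. Kdm6a, which encodes an H3 lysine 27 demethylase and is known to escape inactivation, stood at 0.533 and 0.536 at 0 h and at 0.513 and 0.522 at 24 h, a change of -0.10 ± 0.04 that did not pass (adjusted p 0.356, edgeR).

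**Figure D5:**
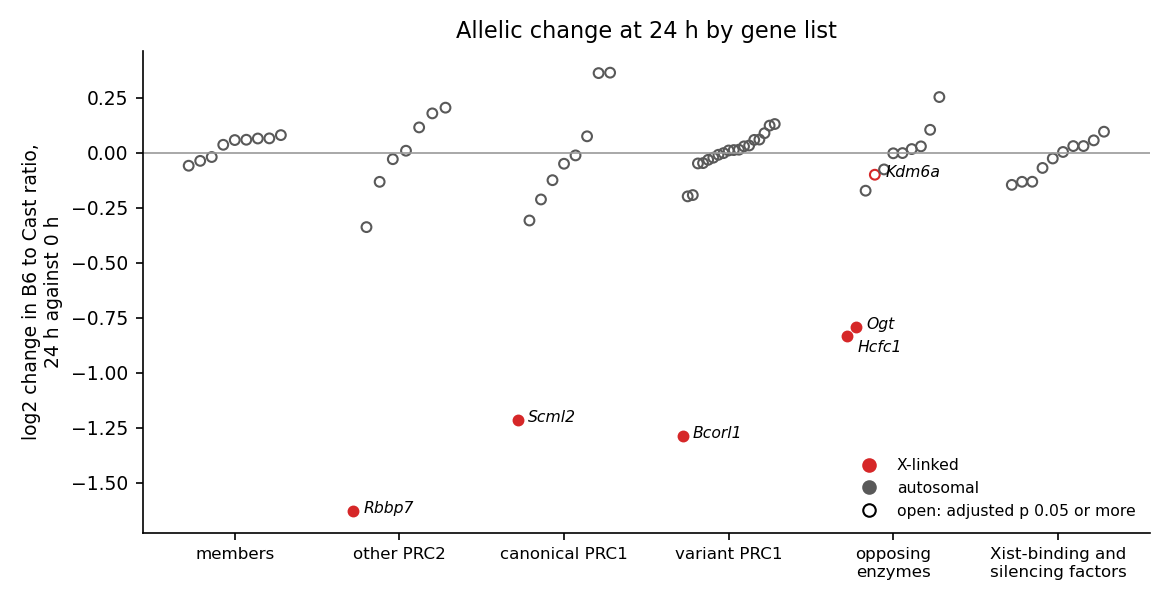
Log2 change in the B6 to Cast ratio at 24 h against 0 h for each tested gene, in columns for the 10 genes and the 5 lists of partners. Red marks X-linked and grey autosomal genes, and filled points have an adjusted p under 0.05 in edgeR. Only the X-linked Rbbp7, Scml2, Bcorl1, Hcfc1 and Ogt are filled.

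Ezh2 and Smchd1 were taken further because they had the smallest p of the 10 in the test over all times (edgeR). Among 8735 genes with a mean count of at least 200, the one most similar in course to each was sought. Likeness was Pearson's r of log2 CPM, here scaled by TMM as in the tests, over the 10 samples. The most similar gene was Cnot4 for Ezh2 (r = 0.992) and Rabep1 for Smchd1 (r = 0.974). A value above 0.8 was reached by 539 genes for Ezh2 and by 237 for Smchd1, so neither course was peculiar to its gene. All genes were read in the same samples, so shifts common to a time or a replicate number enter r. These values describe likeness only.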

How the data were processed

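TT-seq libraries of 10 TX1072 samples were analysed. Per the study's methods and the labels, the authors aligned reads to mm10 with strain variants masked and split them by allele. They counted reads by strand with featureCounts 1.5.1 over the longest span of each gene, introns included. For TT-seq the study's methods name the aligner STAR, whereas the submitters' processing notes name TopHat2 2.1.0. Which aligner made these counts could not be settled. The deposited values are raw counts of all, B6 and Cast reads, and a deposited fraction, B6 over B6 plus Cast reads, present from 10 allelic reads on. Spike-in scaling was not used here.

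Total counts were tested with edgeR 4.0.16 (quasi-likelihood, filterByExpr, TMM, time as factor, all 10 samples) in R 4.3.3, and allele counts with an edgeR model on 20 columns with sample intercepts, allele and allele-by-time terms and equal library sizes for both alleles of a sample. The ratio against that of most genes is the allele term averaged over times after TMM over the 20 columns. Tests were two-sided and adjusted by Benjamini-Hochberg over all tested genes at 0.05, and scripts were tested on simulated data. SEs were taken from the fitted change and its F. Coordinates are printed 1-based, taking the starts in the tables as 0-based. Gene types are from GENCODE and promoters from RefSeq (GRCm38.p6).

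Pairing was checked by correlating deviations from the time means across genes between samples of equal replicate number. For totals all 10 pairs of times exceeded 0.1 (mean 0.204, range 0.136 to 0.264), so the blocked value is given where it changes a call. For the B6 to Cast ratio 0 of 10 did. Replicates differed by more than counting noise (chi-square per degree of freedom 5.37 to 11.5, the highest at 0 h). The 10 genes are fixed by name and the partner and marker lists and rules for naming genes were chosen with earlier results of these data known. The text names all 10 genes, Xist, partners called at 24 h or over time, and by choice of name Rbbp7, Bcor, Ogt, Hcfc1, Kdm6a, Ezh1, Pcgf1, Pcgf2, Bmi1 and Pcgf6. Rbbp4, Otx2, partners called with the block, genes listed at 0 and neighbours were named after their values were seen. Alternatives comprised DESeq2 1.42.0, limma-voom (limma 3.58.1), other scaling, filters and read minimums, the replicate block, and leaving out each sample.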

Additional observations from a re-analysis of the deposited data

How the results depend on the processing

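Of 420 recomputed counts of calls and orders of levels, 395 came out within 1.5 times of the value above and 25 did not. All 45 mean d-scores held when the reads of a time were pooled. Of 1038 recomputed values for single genes, 25 turned sign, 14 came to pass the test and 11 ceased to. With the replicate block, 1 of the 10 genes passed in totals at 12 h (also after adjusting over autosomal genes alone, an alternative chosen after seeing the data) and 1 over all times (Ezh2, adjusted p 0.0578 over autosomal genes alone). The block gave 2 autosomal partners at 12 h and 2 at 24 h in totals, the same numbers after adjusting over autosomal genes alone, and X-linked partners in totals of 1 at 8 h, 3 at 12 h and 4 at 24 h. In B6 share, where equal numbers did not deviate together, the block gave 2 X-linked partners at 4 h and 1 autosomal partner, Phc2, at 24 h, and it changed no other call of a count for the 10 genes. DESeq2 gave 3 X-linked partners at 12 h in B6 share, and 1 at 8 h and 1 at 12 h in totals. Without a filter on low counts 1 passed at 12 h and 2 at 24 h. With equal library sizes for both alleles, the log2 B6 to Cast ratio of Pcgf3 turned to 0.095 in edgeR. It was 0.096 in DESeq2, which was run with this same scaling and is not a separate check of it.

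Leaving out 1 sample at a time gave 0 to 1 of the 10 genes at 12 h in totals, 0 to 1 autosomal partners at 12 h, and 0 to 1 and 0 to 2 X-linked partners at 12 h and 24 h. Small log2 changes of totals at 24 h spanned 0, from -0.026 to 0.14 for Ezh2, -0.056 to 0.061 for Pcgf5, -0.00835 to 0.61 for Ring1 (-0.40 to 0.21 at 12 h), -0.10 to 0.032 for Smchd1, -0.19 to 0.082 for Bcorl1, -0.00129 to 0.28 for Kdm6a, -0.031 to 0.14 for Rbbp4, -0.00799 to 0.029 for Ezh1, -0.089 to 0.11 for Pcgf2 and -0.35 to 0.049 for Bmi1. Those of B6 share at 24 h did so from -0.013 to 0.15 for Eed, -0.083 to 0.040 for Suz12, -0.079 to 0.0064 for Jarid2, -0.022 to 0.15 for Pcgf3 and -0.00750 to 0.13 for Pcgf5, as did the ratio of Suz12 to most genes, from -0.011 to 0.013. None of these had passed a test, and the cause was not tested. Depth limits Ring1, which had at most 23 counts in a sample.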
